A study of Homo sapiens with 18 samples.

Results

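The NF-kB transcription factors and their inhibitors were examined in sorted OCI-Ly18 lymphoma cells through 10 genes chosen by name, all of them present among the 58735 genes of the count table. These were the subunit genes RELA, REL, NFKB1, NFKB2 and RELB, the inhibitor genes NFKBIA, NFKBIB, NFKBIE and BCL3, and TNFAIP3, which encodes the brake A20. All 10 passed the filter on low counts.

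NF-kB factors are dimers that rest in the cytoplasm until an upstream signal frees them. In the canonical arm, dimers of RELA or REL with p50, the product of NFKB1, are held by the IkB proteins until the IKK complex marks these for destruction. In the noncanonical arm, the kinase NIK leads to the processing of p100, the product of NFKB2, into p52, which acts with RELB. B cells use the canonical arm downstream of the B-cell receptor and the noncanonical arm downstream of CD40 and the BAFF receptor, and several of the genes above are themselves NF-kB targets, so that the pathway limits itself.

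OCI-Ly18 is an established human line of diffuse large B-cell lymphoma, here carrying GFP and implanted subcutaneously into NSG mice, which lack T, B and NK cells of their own. Mice were given vehicle (mice M_766, M_769 and M_770) or tazemetostat (EPZ6438), which blocks the methyltransferase activity of EZH2 (mice M_767, M_768 and M_774, 150 mg/kg daily by oral gavage), for 14 days from day 3 after implantation. All 6 mice then received CART19 cells, an engineered T-cell product, and the GFP+ tumour cells were sorted 11 days after that infusion. UTD-infused mice, named in the labels, were not analysed here, and all tumours came from 1 cell line.

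Each mouse had 3 libraries, A, B and C, and the counts of a mouse were summed, so that n = 3 mice per group. The sums held 55712115 to 69816184 counts. The 10 B-cell markers added up to 6024 to 6651 CPM (counts relative to the library total) with vehicle and to 6290 to 6396 with the drug. Of 14 T-cell markers, CD3D and CD3G were at 0 in all 6 mice and CD3E had 27 counts in all. CD2, CD8B, CD4, GZMB and CD28 had at most 9 counts each. TRAC (4545 counts in all), PRF1 (1550), CD8A (538) and TRBC1 (82) were found in every mouse. The T-cell marker sum ran from 329 to 389 CPM with vehicle and from 309 to 327 with the drug, and TRBC2 and IL7R made up most of it. The groups did not overlap in this sum, and it was not tested. Of 8 myeloid markers, FCGR3A, S100A8 and S100A9 were at 0 in every mouse, and the sum stayed at or under 1.47 CPM. Library M_768_C of the tazemetostat group and the 3 libraries of vehicle mouse M_766 were low in long genes. The median deviation of genes over 8000 bases minus that of genes under 3000 bases was -0.73 on the log2 scale in M_768_C and -0.36 to -0.27 in mouse M_766, against 0.01 to 0.21 in the other 14 libraries.

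Several promoters of these genes carry a decamer of the kind that NF-kB dimers bind. RefSeq promoter windows (GRCh38.p14, the 250 bases before a start) were found for 8 of the 10 genes, with 13 windows in all because some genes have several starts. RELB and NFKBIE had no window and were not searched. The kB consensus was searched on both strands. It matched 7 of the 13 windows, in 6 genes, against 5.21% of 35116 windows of all genes, and no match was found in the windows of RELA or BCL3. The matches are shown because they set the genes with and without the motif beside the expression values that follow. Capitals mark the matched bases, overlapping matches run together, and each stretch is 30 bases on the strand of the gene.
NFKB1 (chr4:102501300-102501329, plus strand): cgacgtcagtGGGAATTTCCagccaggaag
NFKB2 (chr10:102394462-102394491, plus strand): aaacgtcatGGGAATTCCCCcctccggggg
NFKB2 (chr10:102394490-102394519, plus strand): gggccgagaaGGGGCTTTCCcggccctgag
NFKB2 (chr10:102395519-102395548, plus strand): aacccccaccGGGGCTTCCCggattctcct
NFKB2 (chr10:102395674-102395703, plus strand): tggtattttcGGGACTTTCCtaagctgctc
REL (chr2:60881518-60881547, plus strand): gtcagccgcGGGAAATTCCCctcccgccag
NFKBIA (chr14:35404811-35404840, minus strand): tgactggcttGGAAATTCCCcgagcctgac
NFKBIB (chr19:38899932-38899961, plus strand): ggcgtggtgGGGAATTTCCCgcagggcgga
TNFAIP3 (chr6:137867188-137867217, plus strand): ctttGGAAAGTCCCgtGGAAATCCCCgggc

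A match is a description of the letters and not evidence of binding in these cells. NFKB2 held the most stretches with a match, 4 over the windows of its starts, and TNFAIP3 held a closely spaced pair.

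None of the 10 genes passed the test of tazemetostat against vehicle (edgeR quasi-likelihood test, Benjamini-Hochberg adjusted p under 0.05 over 20301 genes). Adjusted p ran from 0.764 for NFKBIE to 0.997 for REL. At an unadjusted p under 0.05 the count was also 0 of 10, where 6.55% of all tested genes had such a p (3.34% with a higher level). Of all tested genes 0.0345% passed the adjusted threshold (0.0197% higher and 0.0148% lower). DESeq2 called 0 of 10 and 0.676% of its genes, and limma-voom on the 18 libraries, with mouse as random effect, called 0 of 10 and 1.26%. The log2 fold change was positive for 9 of the 10, and for 9773 of all 20301 tested genes. The median of the 10 was 0.06, against -0.01 over all tested genes. The largest differences were in BCL3 (log2 fold change 0.45), TNFAIP3 (0.36) and NFKBIE (0.23), and the subunits lay between -0.09 and 0.06. In bulk RNA, fewer cells with a transcript and less of it per cell cannot be told apart.

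**Figure D1:**
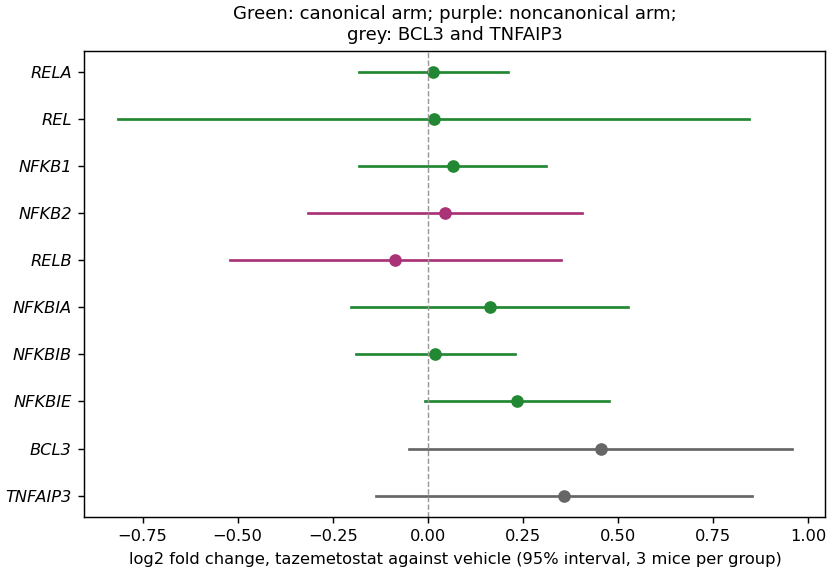
Log2 fold change of each NF-kB gene in tazemetostat against vehicle mice (x axis) with its 95% interval from the edgeR fit, 3 mice per group. All 10 intervals include 0, the interval of RELA is the narrowest (-0.18 to 0.21) and that of REL the widest (-0.81 to 0.84).

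Levels were compared between genes per length, as TPM, a measure of transcript share that uses the deposited gene lengths. NFKBIB was the most abundant transcript of the 10 (74.0 ± 3.99 TPM, SD over 6 mice), followed by RELA (63.4 ± 5.09), NFKBIA (42.5 ± 8.25) and RELB (38.3 ± 8.82). NFKB1 (27.5 ± 3.44 TPM), BCL3 (23.5 ± 7.19), NFKBIE (20.5 ± 2.34) and NFKB2 (17.2 ± 2.95) lay in the middle. TNFAIP3 (13.8 ± 3.85 TPM) and REL (5.09 ± 2.08) were the scarcest. Neighbours in this order were separated in all 6 mice at NFKBIB over RELA, RELA over NFKBIA, RELB over NFKB1, NFKBIE over NFKB2 and TNFAIP3 over REL. NFKBIA over RELB and NFKB2 over TNFAIP3 held in 5 of 6 mice, and NFKB1 over BCL3 and BCL3 over NFKBIE in 4 of 6, so these neighbours are not separated beyond their spread.

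RELA (chromosome 11, 65653596 to 65663094, minus strand), which encodes the main transactivating subunit p65, was the steadiest of the subunits. It was at 103, 105 and 114 CPM in vehicle mice M_766, M_769 and M_770 and at 112, 102 and 111 CPM in tazemetostat mice M_767, M_768 and M_774. The ranges of the groups overlapped. The difference was 0.01 on the log2 scale (SE 0.0881, adjusted p = 0.99 by edgeR), and its 95% interval ran from 0.882-fold to 1.16-fold. Its spread between mice of a group (SD 0.078 on the log2 scale) was smaller than that of all but 9.45% of tested genes.

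NFKB1 (chromosome 4, 102501329 to 102617302, plus strand) encodes p105, the precursor of p50. Its levels were 44.6, 52.4 and 60.2 CPM in vehicle and 56.2, 54.7 and 53.5 CPM in tazemetostat mice, in the order of mice given above. The tazemetostat mice lay inside the range of the vehicle mice. The difference was 0.06 on the log2 scale (SE 0.111, adjusted p = 0.964 by edgeR), with a 95% interval from 0.881-fold to 1.24-fold, and its sign turned without mouse M_766 (-0.03).

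REL (chromosome 2, 60881521 to 60931610, plus strand) encodes c-Rel, a subunit used by B cells in particular, and it varied more between mice than any other gene of the set. It was at 7.77 CPM in vehicle mouse M_766 and at 24.2 and 29.7 CPM in the other vehicle mice, against 26.8, 18.6 and 16.9 CPM in the tazemetostat mice. Its SD between mice of a group was 0.80 on the log2 scale, above 99.5% of tested genes, and 0.52 between libraries of a mouse. In mouse M_768 it was at 26.5 CPM in library A, 19.8 in library B and 5.25 in library C. REL has the longest deposited gene length of the 10 (13170 bases), and its low values were in the libraries low in long genes. The part of that loss in these values was not tested. The group difference was 0.02 (SE 0.374, adjusted p = 0.997 by edgeR), with an interval from 0.569-fold to 1.80-fold. Without mouse M_766 and library M_768_C, left out together after their values were seen, it was -0.26 (adjusted p = 0.646), so the data do not bound a change in REL closely.

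NFKB2 (chromosome 10, 102394110 to 102402529, plus strand), the p100 gene, ranked the mice differently from RELA, REL and NFKB1. It was at 21.7, 22.3 and 27.0 CPM in vehicle and at 22.1, 31.2 and 19.9 CPM in tazemetostat mice. Mouse M_768 was highest and mouse M_774 lowest, and both belong to the tazemetostat group. A difference of 0.05 on the log2 scale was found (SE 0.162, adjusted p = 0.981 by edgeR; interval 0.804-fold to 1.32-fold) and -0.17 without mouse M_768.

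RELB (chromosome 19, 45001430 to 45038198, plus strand) encodes the partner of p52 and was the one member with a negative difference. It was at 28.7, 36.9 and 46.3 CPM in vehicle and at 30.8, 45.6 and 28.9 CPM in tazemetostat mice. Mice M_770 and M_768, from different groups, were high, and the other mice were lower. Its log2 fold change was -0.09 (SE 0.196, adjusted p = 0.976 by edgeR; interval 0.697-fold to 1.27-fold), and the spread between mice within a group (SD 0.36) was larger than this difference. It was -0.32 without mouse M_768 and 0.11 without mouse M_770.

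**Figure D2:**
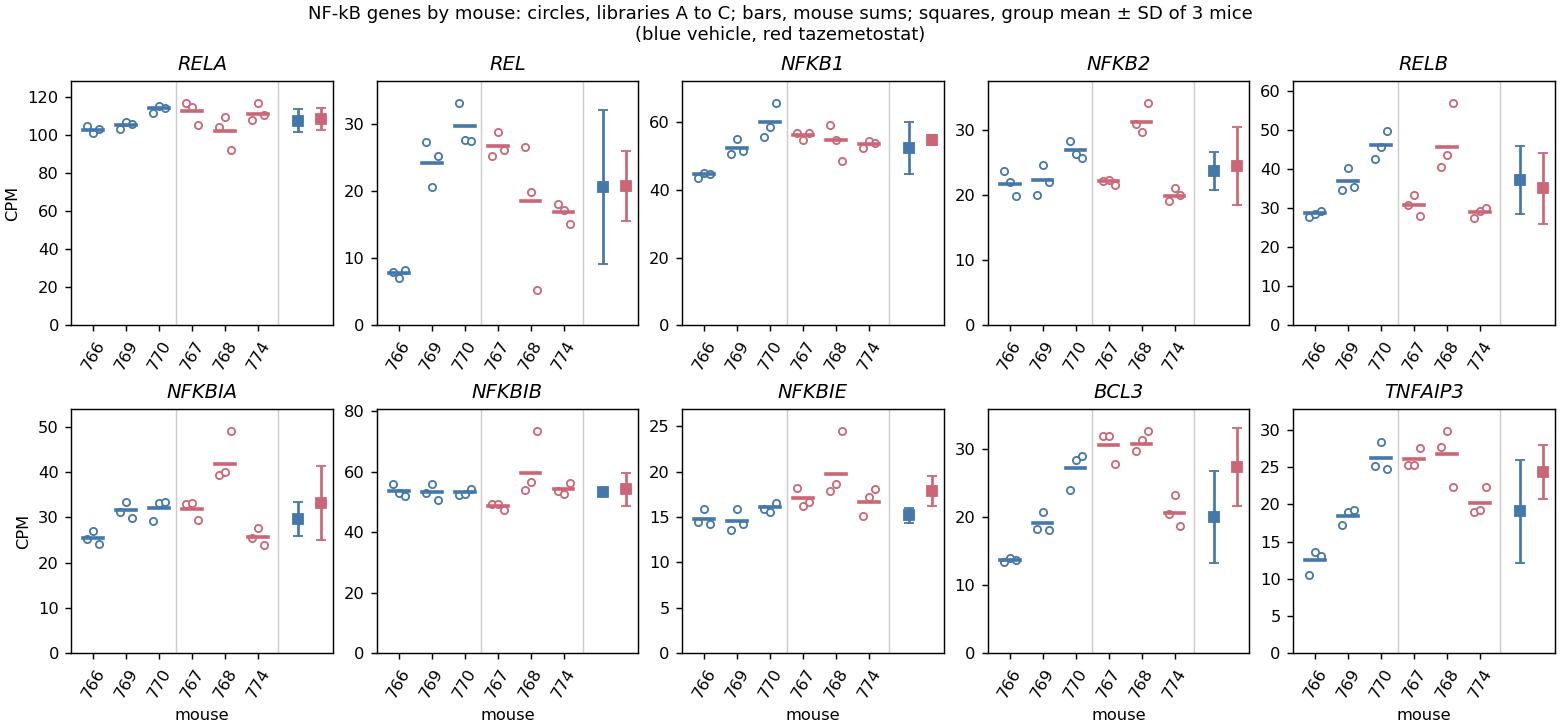
CPM (y axis) of each NF-kB gene in each mouse (x axis; vehicle in blue, tazemetostat in red), with libraries A to C as circles, the mouse sum as a bar and the group mean ± SD of 3 mice as a square. REL is low in mouse M_766 and in the third library of mouse M_768, and NFKBIE is the 1 gene whose mouse sums do not overlap between the groups.

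The arms were compared within each mouse through the ratio of their precursors and of their partner subunits, as counts per length. NFKB2 was at 0.680, 0.593 and 0.626 of NFKB1 in vehicle and at 0.548, 0.796 and 0.520 in tazemetostat mice. The group means were 0.633 ± 0.0442 and 0.622 ± 0.152 (SD, n = 3 each). The difference of -0.05 on the log2 scale had an exact permutation p of 0.9 (two-sided; 3 against 3 cannot go below 0.1). RELB was at 0.502, 0.631 and 0.729 of RELA in vehicle and at 0.4933, 0.806 and 0.468 in tazemetostat mice, a difference of -0.10 (exact permutation p = 0.8; adjusted over the 2 ratios, both p were 0.9). Per length, each canonical gene exceeded its noncanonical counterpart in all 6 mice, and mouse M_768 had the highest value of both ratios with all libraries summed. Its library M_768_C, which was low in long genes, was at 1.12 for RELB to RELA and 0.981 for NFKB2 to NFKB1. Without that library M_768 was at 0.709 for RELB to RELA, below vehicle mouse M_770, and at 0.740 for NFKB2 to NFKB1, still the highest mouse. The group differences were then -0.17 (exact permutation p = 0.5) and -0.09 (exact permutation p = 0.7) on the log2 scale. Mouse M_774 of the tazemetostat group was the lowest in both ratios.

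**Figure D3:**
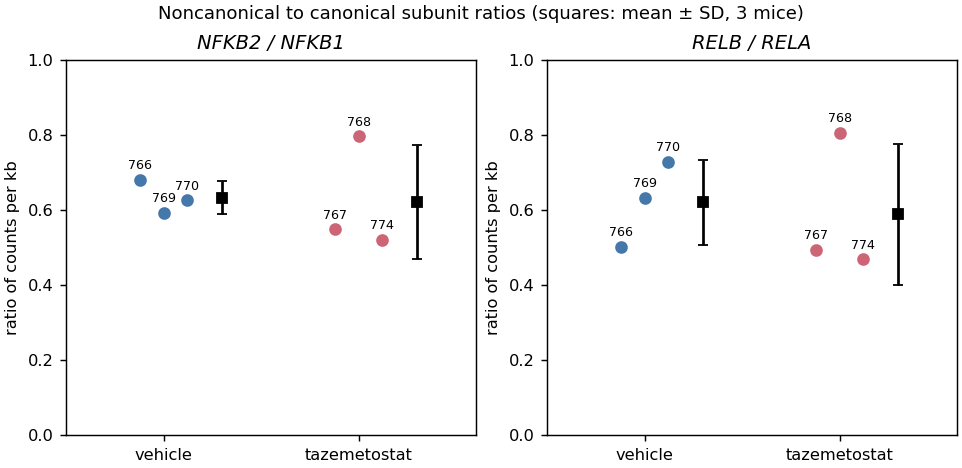
Ratio of counts per kb of NFKB2 to NFKB1 and of RELB to RELA (y axis) in each mouse, with the group mean ± SD of 3 mice as squares. The ratio of the summed libraries is below 1 in every mouse, and mouse M_768 stands highest in both panels, though without library M_768_C its RELB to RELA ratio is 0.709, below M_770 at 0.729.

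Averaged over the 6 genes of the canonical arm, log2 CPM had a mean of 5.19 ± 0.256 with vehicle and 5.30 ± 0.1 with the drug (RELA, REL, NFKB1 and the NFKBIA, NFKBIB and NFKBIE inhibitors). Over NFKB2 and RELB it was 4.88 ± 0.252 and 4.84 ± 0.346 (SD, n = 3 each). The noncanonical mean minus the canonical mean was -0.26, -0.43 and -0.25 in vehicle and -0.64, -0.14 and -0.60 in tazemetostat mice, so the ranges overlapped. REL, with the same weight as each other canonical gene, was at 2.96 in M_766 and at 4.60 and 4.90 in M_769 and M_770. This low REL value lowers the canonical mean of M_766 and widens the vehicle spread. The value of M_768 includes library M_768_C, which was low in long genes. These arm means are a description of the chosen genes and carry no test.

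NFKBIA (chromosome 14, 35401511 to 35404749, minus strand) encodes IkBα, the inhibitor that NF-kB resynthesizes fastest after activation. It was at 25.4, 31.6 and 32.0 CPM in vehicle and at 32.0, 41.9 and 25.7 CPM in tazemetostat mice. Mouse M_768 was alone above the rest, and mouse M_774 of the same group was close to the lowest vehicle mouse. A log2 fold change of 0.16 (SE 0.164, adjusted p = 0.92 by edgeR) had an interval from 0.87-fold to 1.44-fold and was -0.04 without mouse M_768.

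NFKBIB (chromosome 19, 38899700 to 38908893, plus strand), the gene of the more slowly degraded IkBβ, was nearly the same in the vehicle mice, at 53.6, 53.3 and 53.3 CPM. The tazemetostat mice were at 48.8, 59.5 and 54.2 CPM, around the vehicle values on both sides (log2 fold change 0.02, SE 0.0943, adjusted p = 0.987 by edgeR; interval 0.877-fold to 1.17-fold). The gene model overlaps that of SIRT2 on the opposite strand by 163 bases, and SIRT2 held 50.4% as many counts. Reads in the overlap are therefore uncertain where strand was not used.

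NFKBIE (chromosome 6, 44258166 to 44265788, minus strand) encodes IkBε and was the 1 of 10 genes whose groups did not overlap, in a table where 12.6% of tested genes were so separated. It was at 14.8, 14.6 and 16.1 CPM in vehicle and at 17.1, 19.7 and 16.7 CPM in tazemetostat mice. The group SDs were 0.798 and 1.64 CPM. The log2 fold change of 0.23 (SE 0.109, unadjusted p = 0.0561, adjusted p = 0.764 by edgeR) stayed positive in 17 of 17 alternative settings, from 0.13 to 0.28, and passed in 0. Library M_768_C was the highest of all for this gene (24.4 CPM), and without it the difference was 0.19.

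BCL3 (chromosome 19, 44747705 to 44760044, plus strand) encodes an atypical nuclear IkB that binds p50 and p52 dimers and can activate transcription with them. Its levels were 13.7, 19.1 and 27.2 CPM in vehicle and 30.6, 30.8 and 20.7 CPM in tazemetostat mice. Vehicle mouse M_770 lay above tazemetostat mouse M_774, so the groups overlapped. The log2 fold change was 0.45 (SE 0.227, unadjusted p = 0.0721, adjusted p = 0.797 by edgeR), with an interval from 0.967-fold to 1.94-fold. It was 0.25 without mouse M_766 and 0.74 without mouse M_770. Over the alternatives the adjusted p ran from 0.0277 to 0.9997, and it passed in 1 of 17, the fit with no low-count filter.

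TNFAIP3 (chromosome 6, 137867188 to 137883312, plus strand) encodes A20, a ubiquitin-editing enzyme that shuts off signalling upstream of IKK. It was at 12.5, 18.5 and 26.2 CPM in vehicle and at 26.2, 26.8 and 20.2 CPM in tazemetostat mice. The order of mice was nearly that of BCL3, with mouse M_766 lowest, M_769 and M_774 next, and M_770, M_767 and M_768 high. The log2 fold change of 0.36 (SE 0.223, adjusted p = 0.845 by edgeR; interval 0.91-fold to 1.80-fold) was 0.14 without mouse M_766 and 0.66 without mouse M_770. An antisense gene model, AL357060.1, overlaps it by 1046 bases and held 12.8% as many counts, so its value is uncertain where strand was not used.

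Dissociation and stress genes were mostly higher on average with the drug: of 25 tested, 23 were positive (median log2 fold change 0.54), 13 had an unadjusted p under 0.05 and 0 passed over all genes. Of all 20301 tested genes 9773 were positive, and 6.55% had an unadjusted edgeR p under 0.05 (3.34% with a higher level). Of the list KLF4 was at 0 in all 6 mice. The summed level of the 27 genes was 2516 to 3516 CPM with vehicle and 3643 to 4458 with the drug, and mouse M_766, the lowest for REL, BCL3 and TNFAIP3, was also the lowest here. With the mean level of these genes as a covariate, the log2 fold changes of BCL3 (-0.31), TNFAIP3 (-0.37) and NFKBIA (-0.31) were negative, those of REL and RELB were -1.24 and -0.65, and that of NFKBIE was 0.13. None of the 10 passed in that fit. The stress level did not overlap between the groups, so drug and stress level cannot be told apart.

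Library M_768_C split the 10 genes by length. Against the mean of the other 2 libraries of its mouse, the 6 genes of 4484 bases or less were higher, by 0.10 (BCL3) to 0.44 (RELB) on the log2 scale. The 4 genes of 5051 bases or more were lower, with RELA at -0.22, NFKB1 at -0.23, TNFAIP3 at -0.36 and REL at -2.11. Vehicle mouse M_766 showed no such division: against the other vehicle mice REL was at -1.78, but the shorter RELB (-0.53) and BCL3 (-0.73) were also low and RELA was at -0.09.

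**Figure D4:**
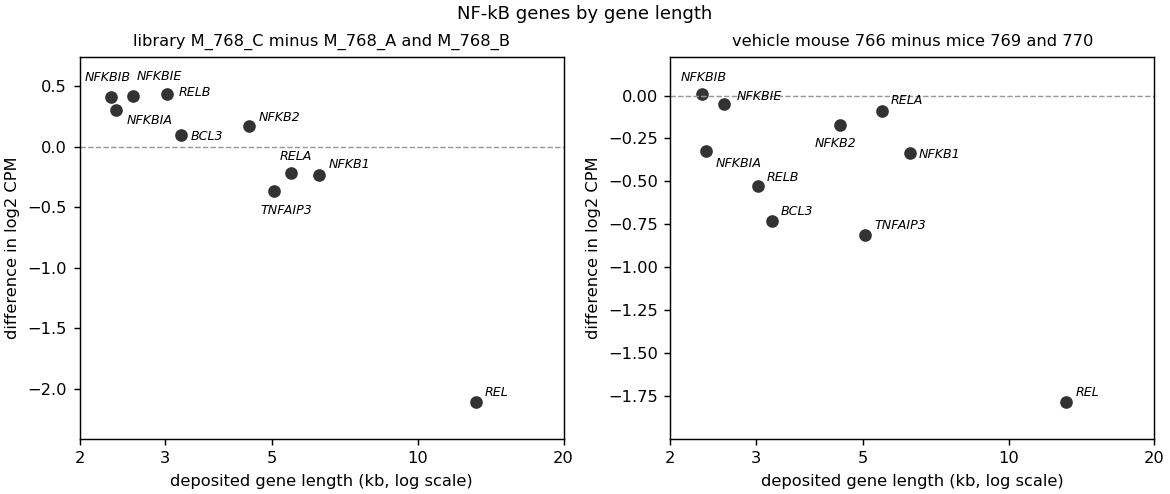
Difference in log2 CPM (y axis) of each NF-kB gene against its deposited gene length (x axis, log scale), in library M_768_C against the other libraries of its mouse (left) and in mouse M_766 against the other vehicle mice (right). REL, the longest, is lowest in both panels, and on the left the 6 shorter genes lie above 0 and the 4 longer ones below.

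Across the 18 libraries, those of vehicle and drug overlapped for each gene. RELA libraries ran from 101 to 115 CPM in vehicle (median 106) and from 91.8 to 117 in tazemetostat (median 109). BCL3 libraries ran from 13.4 to 29.0 CPM (median 18.3) and from 18.6 to 32.6 (median 29.7). TNFAIP3 libraries were at 10.6 to 28.4 CPM (median 18.9) and 19.0 to 29.9 (median 25.3). NFKB2 libraries were at 19.8 to 28.3 CPM (median 23.7) in vehicle and 19.0 to 34.1 (median 22.2) in tazemetostat. Libraries of a mouse were closer to each other than mice of a group for 9 of the 10 genes. NFKBIE was the exception, with an SD of 0.13 within and 0.11 between mice.

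**Figure D5:**
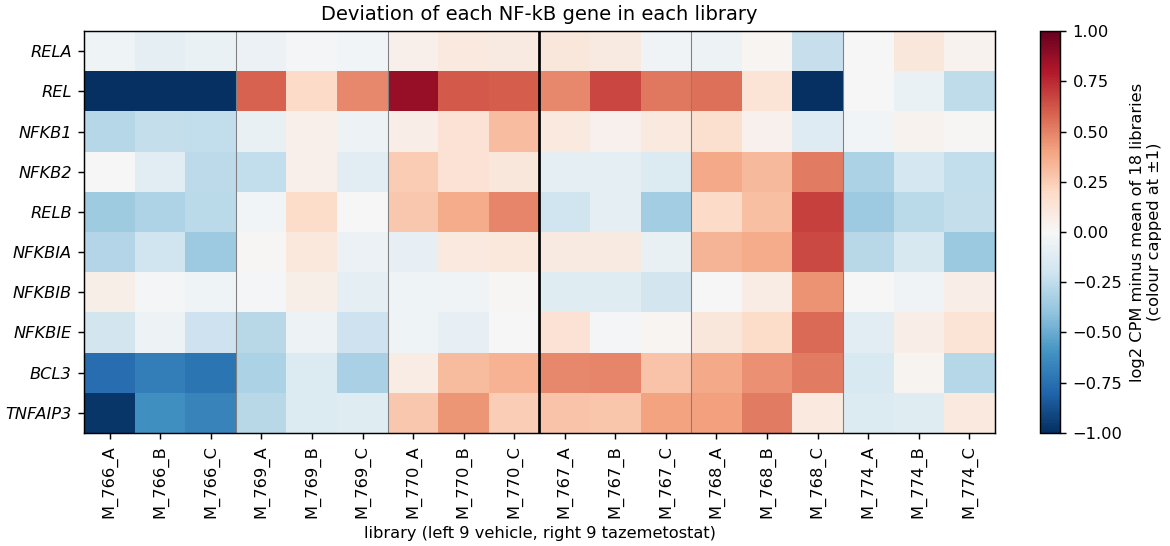
Deviation of log2 CPM from the mean of the 18 libraries (colour, capped at ±1) for each NF-kB gene (rows) in each library (columns, vehicle left of the black line). BCL3 and TNFAIP3 are low in mouse M_766, and NFKB2 and NFKBIA are high in the 3 libraries of mouse M_768.

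The genes whose pattern over the 18 libraries was most like that of NFKBIA were DEPP1 (Pearson r = 0.89, Spearman rho = 0.893), ZFAND2A (r = 0.889), NXPH4 (r = 0.888), IER5 (r = 0.885) and CABLES1 (r = 0.871). For NFKB2 they were SHMT2 (r = 0.895, rho = 0.831), YARS2 (r = 0.881), LTB (r = 0.874), NXPH4 (r = 0.859) and AHSA1 (r = 0.857). Spearman rho with NFKBIA was 0.796 for ZFAND2A, 0.773 for NXPH4, 0.748 for IER5 and 0.874 for CABLES1. With NFKB2 it was 0.874 for YARS2, 0.820 for LTB, 0.740 for NXPH4 and 0.845 for AHSA1. Library M_768_C was the highest of the 18 for NFKBIA (49.1 CPM) and NFKB2 (34.1 CPM), and its part in r was not tested. The genes were picked as the highest of 9894 by Pearson r. Libraries of 1 mouse are not independent, so these values only describe likeness. LTB encodes a lymphotoxin subunit and IER5 is an immediate-early gene of the stress list.

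The canonical signalling genes that lead from receptors to IKK did not shift as a group. Of 23, all tested, 13 were positive and 10 negative (median 0.02, and -0.07 with the stress level as a covariate), and 0 passed. RBCK1, a subunit of the linear ubiquitin ligase, had a level of 121 ± 7.30 CPM with vehicle and 142 ± 2.81 with the drug (log2 fold change 0.24, adjusted p = 0.639 by edgeR). BCL10, an adaptor that works with MALT1 downstream of the B-cell receptor, had a log2 fold change of 0.25, the Toll-like receptor adaptor MYD88 one of 0.23 and TAB1, a partner of the kinase TAK1, one of -0.17. The kinase subunits IKBKB (99.3 ± 8.75 and 93.0 ± 5.96 CPM, vehicle first) and CHUK (31.3 ± 3.15 and 33.2 ± 1.32 CPM) did not pass (adjusted p = 0.923 and 0.93). They were named after their values were seen, for their place in the pathway.

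In the noncanonical arm, 8 of 11 signalling genes were tested, 7 were positive (median 0.15) and 0 passed. The direction of that median turned with the stress level as a covariate (-0.09), and it was 0.09 without mouse M_766, 0.10 without M_768, 0.08 without M_766 and library M_768_C, and 0.25 with the 18 libraries fitted and mouse as random effect. TRAF3, the adaptor that holds NIK for degradation, was the 1 negative gene. Its level was 88.7 ± 4.71 CPM with vehicle and 73.8 ± 6.17 with the drug (log2 fold change -0.27, SE 0.0939, adjusted p = 0.633 by edgeR), with no overlap between the groups, where 6% of tested genes were lower without overlap. With the 18 libraries fitted and mouse as random effect it passed (limma-voom adjusted p = 0.0288), and it did not with the library letter added as a block (adjusted p = 0.0512). The receptor genes TNFRSF13C, which encodes the BAFF receptor (24.9 ± 4.12 and 30.01 ± 4.15 CPM), and CD40 (12.1 ± 2.48 and 14.6 ± 1.39 CPM) did not pass, at 0.27 and 0.26 on the log2 scale. The BAFF-binding receptor TNFRSF13B was at 0.24. NIK itself, encoded by MAP3K14 and named after its values were seen, was at 41.9 ± 4.56 and 44.2 ± 5.47 CPM (adjusted p = 0.959).

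Of the 13 other negative regulators 12 were tested, 9 were positive (median 0.15, but 0.05 with the stress level as a covariate and 0.09 without mouse M_768) and 0 passed, while 4 were higher with no overlap between the groups, where 6.58% of tested genes were. The deubiquitinase CYLD was at 52.9 ± 8.27 and 65.2 ± 2.64 CPM (log2 fold change 0.30, adjusted p = 0.671 by edgeR). RNF11, a partner of A20, was at 15.0 ± 0.19 and 18.2 ± 1.73 CPM (0.28, adjusted p = 0.666). TRAF1, at 0.29, and the ubiquitin ligase ITCH, at 0.23, had adjusted p of 0.805 and 0.807. The 3 further IkB genes did not pass: NFKBIZ was at 34.4 ± 15.0 and 43.5 ± 8.30 CPM, NFKBID at -0.05 and NFKBIL1 at -0.08 on the log2 scale.

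Among NF-kB targets outside the set, of 36 genes 26 were tested and 23 were positive (median 0.25, against -0.01 over all tested genes), and 6 were higher with no overlap, where 6.58% of all tested genes were. This median was 0.09 with the stress level as a covariate, 0.17 without mouse M_766, 0.12 without M_768, and 0.14 without M_766 and library M_768_C. The list was written with an earlier result on such targets in these data known, so its direction is not independent evidence. It shares TRAF1, higher with no overlap, with the negative regulators. It also shares CD40 and BIRC3 with the noncanonical signalling genes, so the lists are not separate observations. FAS, a death receptor, passed (14.1 ± 0.887 and 24.6 ± 0.539 CPM, log2 fold change 0.80, adjusted p = 0.0277 by edgeR), and the call was lost without mouse M_767, M_768, M_769 or M_774 (adjusted p = 0.192 to 0.228) or with the stress level as a covariate (adjusted p = 0.18). The difference itself stayed similar, at 0.79 to 0.84 on the log2 scale without 1 of those mice and 0.67 with the covariate. IER3, an immediate-early gene, was at 3.62 ± 0.916 and 7.85 ± 2.25 CPM (adjusted p = 0.31) and the adhesion molecule ICAM1 at 65.4 ± 3.35 and 84.8 ± 4.66 CPM (adjusted p = 0.35). DESeq2 called both (adjusted p = 0.00163 and 0.0375). With the stress level as a covariate in edgeR, the log2 fold change of IER3 went from 1.12 to 0.29 (adjusted p = 0.755) and that of ICAM1 from 0.38 to 0.28 (adjusted p = 0.604). TNFSF13B, the gene of BAFF, was scarce at 0.937 ± 0.145 and 1.603 ± 0.236 CPM (log2 fold change 0.78, adjusted p = 0.476).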

How the data were processed

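The authors deposited raw, unscaled read counts per gene for 18 libraries together with gene lengths. The submitters' processing notes name hg38 and DESeq2, without a role for either. How reads were aligned and counted, and whether by strand, is not given in the sources used here. Gene positions are those of the deposited table, and the promoter stretches use RefSeq starts, which can differ from them. The stretches of NFKB2, NFKBIB and TNFAIP3 lie inside the deposited gene models, and so do the matched bases of REL. Of the 18 pairs of libraries from 1 mouse, 18 differed by more than counting noise (chi-square test), and libraries were summed by mouse. Nothing in the labels says what the letters A to C are. Sums were tested with edgeR 4.0.16 under R 4.3.3 (TMM scaling; filterByExpr, a minimum count of 10, quasi-likelihood test, Benjamini-Hochberg over 20301 genes, threshold 0.05). The genes removed held 0.0602% of counts. CPM of single genes use the TMM factors and log2 CPM a prior count of 2. The summed CPM of the marker lists and of the stress genes are relative to all counts, without these factors. Standard errors were derived from the fold change and its F statistic. TPM are counts per deposited gene length scaled to a common total. Ratios used two-sided exact permutation tests. The edgeR fit was tested on simulated counts with the same dispersion for every gene and no library low in long genes. That simulation therefore does not show how the fit behaves for a gene as variable as REL. limma 3.58.1 and DESeq2 1.42.0 served as alternatives. The genes and lists were chosen with earlier results of these data known. Besides the 10 genes, up to 4 genes of each pathway list with the smallest p, those past the threshold, and the 5 genes most like NFKBIA and NFKB2 (mean log2 CPM of at least 3) were named by rule; other named genes are said to be so. The length comparison was added after the data were seen.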

Additional observations from a re-analysis of the deposited data

Results flagged for a closer look

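In the 9 tazemetostat libraries, 3 of the 10 genes had a library far from the others, measured as the gap to the nearest library over the whole range, and in each case it was M_768_C. NFKBIB was at 73.3 CPM there, with the next library at 56.5 (gap 0.646 of the range). NFKBIE was at 24.4 CPM, with the next at 18.6 (0.626). RELA was at 91.8 CPM, with the next at 104 (0.4935). No such library was found in the vehicle group. Chance flags about 1 in 20 groups, 20 groups were examined, and libraries of a mouse are not independent.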

How the results depend on the processing

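With 3 mice per group, none of the 10 genes passed in any of 17 settings, except BCL3 without a low-count filter (log2 fold change 0.46, adjusted p = 0.0277), and the 95% intervals still allow changes of up to 1.80-fold for REL and 1.94-fold for BCL3. The number of genes called among all tested, 7 here, was 252 without a filter, 124 with DESeq2, 256 with the 18 libraries and the mouse as a random effect, 224 with the library letter added as a replicate block, 26 with the stress level as a covariate, 51 without mouse M_766 and library M_768_C together (chosen after seeing the data), and 0 to 59 with a mouse left out (26 without M_766, 59 without M_770, 1 without M_767); the cause was not tested. At an unadjusted p under 0.05 the 3 fits that called 0 (edgeR, without M_768, M_769 or M_774) had 943 to 1067 genes. No other call among the 10 genes changed with the letter block, and the letters do not link mice across groups.

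Signs turned in several settings. With the stress level as a covariate, also for BCL3 and TNFAIP3, which had the largest differences of the 10 genes, the log2 fold changes were -0.19 for NFKB1, -0.28 for NFKB2, -1.24 for REL, -0.021 for RELA, -0.31 for NFKBIA and BCL3, -0.37 for TNFAIP3, -0.079 for CD40, -0.66 for NFKBIZ, 0.18 for NFKBIL1 and -0.012 for CYLD. With upper-quartile factors they were -0.0073 for REL, -0.018 for RELA and -0.013 for NFKBIB. Without M_768_C NFKBIB was at -0.019, and without it and mouse M_766 NFKB1 was at -0.0091, NFKB2 at -0.025, REL at -0.26 and NFKBIB at -0.011. With a mouse left out the ranges were -0.029 to 0.18 (NFKB1), -0.17 to 0.17 (NFKB2), -0.37 to 0.39 (REL), -0.010 to 0.065 (RELA), -0.32 to 0.11 (RELB), -0.039 to 0.32 (NFKBIA), -0.052 to 0.092 (NFKBIB), -0.23 to 0.091 (NFKBIL1), -0.11 to 0.083 (NFKBID), and for the ratios -0.24 to 0.064 (NFKB2 to NFKB1) and -0.35 to 0.040 (RELB to RELA).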

Other observations

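Several receptors and targets of the pathway were at or near 0 in these libraries. LTBR, the lymphotoxin receptor of the noncanonical arm, had 1 count in all, in a tazemetostat mouse. TNFRSF1B, a TNF receptor, was detected in 1 mouse of each group, with 4 counts (vehicle) and 2 counts (tazemetostat). TNFRSF1A, the TNF receptor of the canonical arm, was at 0.435 ± 0.307 and 0.241 ± 0.149 CPM. TNFAIP2 was at 0 in all 6 mice, CCL22 had 0, 0 and 0 counts in vehicle and 3, 3 and 0 in tazemetostat mice, and CXCL8 had 2, 0 and 2 and 5, 3 and 1, too few to compare the groups. TNF was at 1.03 ± 0.813 and 2.18 ± 0.73 CPM (edgeR adjusted p = 0.764), and CXCL10 at 0.428 ± 0.291 and 0.948 ± 0.182 CPM (edgeR adjusted p = 0.634). These genes were named after their values were seen.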
